A study of Rattus norvegicus with 12 samples.

Results

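The channels that release calcium from intracellular stores and the pumps that refill them were examined as a group of 9 genes: the inositol trisphosphate (IP3) receptors Itpr1, Itpr2 and Itpr3, the ryanodine receptors Ryr1, Ryr2 and Ryr3, and the sarco/endoplasmic reticulum calcium ATPases (SERCA pumps) Atp2a1, Atp2a2 and Atp2a3. They were found by the gene name printed for each probe in the array files, out of 26214 distinct names. All 12 files gave 1 of these names to 13 probes of the 30367 gene probes, and 10 of the 13, from 8 genes, were bright enough to be tested together with 23796 probes in all. A 14th probe was named Ryr3 in the 2 files of replicate 3, which carried a newer annotation, and by a transcript number in the other files. Its values are given with those of Ryr3 but it is not counted.

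RNA came from neuron-enriched cerebellar cultures of 1-day-old Sprague-Dawley rats, harvested after 16 days in vitro (DIV) and hybridised to 1-colour oligonucleotide arrays. The 6 control cultures had received dimethyl sulfoxide (DMSO, 0.001%) alone. The other 6 had received 1 µM acetamiprid (ACE), a neonicotinoid insecticide, in the same amount of DMSO from day 2 on, and in all of them a part of the medium was renewed every 2 days. Each culture lot came from 1 litter and gave cultures of both groups. A control and an ACE array with the same replicate number were taken as 1 lot, which makes 6 pairs (control versus ACE, CvA). Animals of a litter were pooled, the agent was given to whole cultures, and no genotype other than the strain was involved. The arrays measured all cells of a culture together, in which fewer cells of a type and less RNA per cell cannot be told apart.

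IP3 receptors are channels of the endoplasmic reticulum that open when IP3, made by phospholipase C after stimulation of a surface receptor, binds to them. Ryanodine receptors open in response to cytosolic calcium or, in skeletal muscle, to the voltage sensor of the surface membrane, and SERCA pumps return the calcium to the store. In the cerebellum, Itpr1 is known for its abundance in Purkinje cells, while Ryr1 and Atp2a1 are best known as the channel and the pump of fast skeletal muscle, Ryr2 as the channel of heart and neurons, and Atp2a2 as the pump found in nearly all cells.

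The labelled tissue was checked against marker genes before the members were read. Of the genes tested, 8 of 9 pan-neuronal, 9 of 10 granule cell and 9 of 12 Purkinje cell markers were well above background on all 12 arrays. So were all 10 astrocyte, all 11 oligodendrocyte and all 10 microglia markers. Of 41 skeletal muscle markers, 35 were tested, 24 of these were well above background on all 12 arrays and 2 of the 41 were so on no array. The signal at the 75th percentile was 1803 to 4272 intensity units on the control arrays and 2009 to 4384 on the ACE arrays, and 75.4% to 91.0% of the gene spots were well above background. Within each pair both arrays shared a slide, with control at place 1 and ACE at place 3, so exposure and place cannot be told apart.

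Each probe is a single strand of 60 bases. Coordinates are those printed in the files (build rn4). Of the 14 probes, 9 hold at least 1 reading frame without a stop codon before the last codon, which is a property of the letters and not an annotation. The 6 shown were picked from these 9 among the release channels. They are 1 probe each of Itpr1 and Itpr3, the probes of Ryr1 and Ryr2 whose signal was weak or missing, and the further Ryr3 probe. The Itpr2 probe, Ryr2 probe A_64_P091098 and Ryr3 probe A_64_P095680 are not among the 9. Exon, intron and UTR annotation of this build was not used here. Capitals mark a self-complementary run, one that reads the same on the opposite strand, of at least 8 bases.
Itpr1 probe A_64_P119637, chr4:144028709-144028768, plus strand: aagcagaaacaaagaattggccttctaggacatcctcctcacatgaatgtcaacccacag
Itpr3 probe A_44_P288185, chr20:5355438-5356361, plus strand: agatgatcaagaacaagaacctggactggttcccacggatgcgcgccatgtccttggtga
Ryr1 probe A_44_P1033053, chr1:84116515-84117178, minus strand: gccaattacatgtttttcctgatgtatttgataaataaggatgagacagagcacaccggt
Ryr1 probe A_64_P066497, chr1:84152557-84152616, minus strand: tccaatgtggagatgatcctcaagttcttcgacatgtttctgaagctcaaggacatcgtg
Ryr2 probe A_64_P000023, chr17:69544683-69544742, plus strand: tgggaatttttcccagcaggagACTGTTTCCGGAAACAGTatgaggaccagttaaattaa
Ryr3 probe A_64_P033565, chr3:98479417-98479476, minus strand: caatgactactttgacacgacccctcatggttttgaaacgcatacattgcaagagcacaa

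The Itpr3 probe and the first Ryr1 probe covered 924 and 664 bases of the genome with their 60 bases, so the match of both to the genome is split. The second Ryr1 probe lay 36042 bases away from the first. The Ryr2 probe held a self-complementary run of 18 bases. Of all 30367 probes, 11 (0.0362%) held a run of that length or longer, of which 1, the Ryr2 probe, was well above background on no array (9.09%). For runs of at least 12 bases that share was 11.7% of 383 probes, and over all probes it was 7.57%. These shares were not tested.

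No tested member passed limma's test of control against ACE cultures. The 10 probes were split evenly, 5 higher and 5 lower in ACE, and 8 of them differed by less than 0.1 on the log2 scale. Unadjusted limma p-values ran from 0.0750 to 0.966, so 0 of 10 probes passed 0.05, against 16.6% of all probes tested (6.9% higher and 9.73% lower in ACE). Of these calls 41.5% were higher in ACE, against 19.7% with the arrays scaled by their 75th percentile and 51.5% with the deposited log2 values, so the direction over all probes depended on the scaling. In 0 of 10 probes did all 6 pairs go the same way, against 11.6% of all probes (4.72% higher and 6.86% lower). After Benjamini-Hochberg adjustment of the limma p-values 0 members passed, with adjusted p-values from 0.346 to 0.985, and 0% of the 23796 probes passed (lowest adjusted p = 0.141). Limma with the replicate as a random block passed 5 probes, none of them a member. The exact signed-rank test over pairs had 2755 probes under 0.05 before adjustment and 0 after it, but its smallest p-value with 6 pairs is 0.03125, so it could hardly pass the adjustment and the 0 says nothing. The median difference of the 10 probes was -0.013 on the log2 scale, and that of all probes was -0.0050. The precision was not alike for all members: 7 of the 10 had a 95% interval (limma) that lay within 0.25 of 0 on the log2 scale, while the intervals of Itpr3, Atp2a1 and Atp2a3 were wider.

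**Figure D1:**
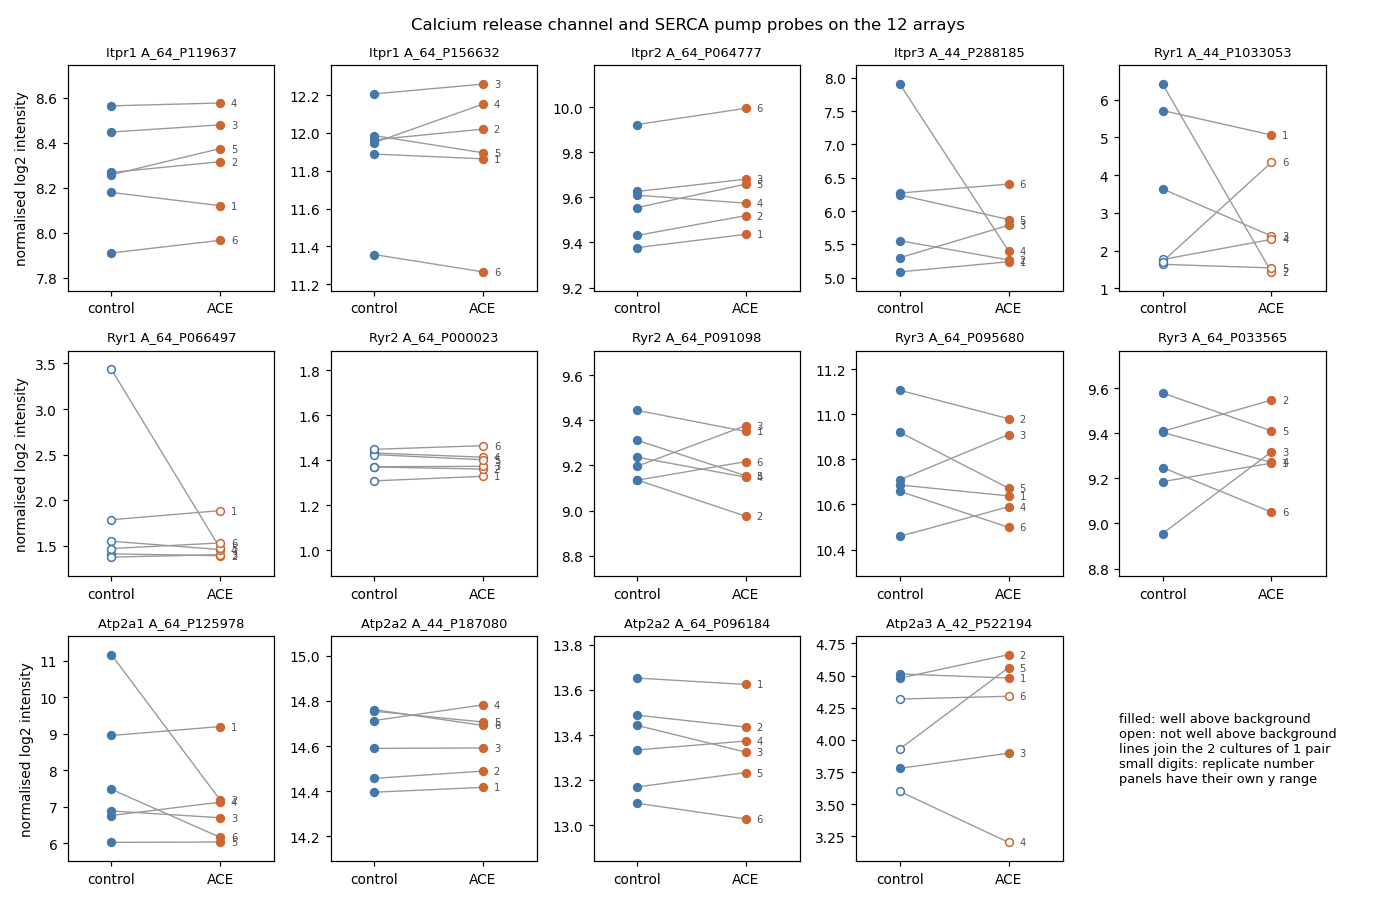
Normalised log2 intensity (y axis, own range in each panel) of the 13 member probes and of the further Ryr3 probe A_64_P033565 on the 12 arrays, control on the left and ACE on the right, with a line for each of the 6 pairs and open circles where the probe was not well above background. The pairs of Itpr1, Itpr2 and Atp2a2 run almost level, while Itpr3 replicate 4 (7.91 to 5.40) and Atp2a1 replicate 2 (11.17 to 7.19) are lower in ACE.

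Among the IP3 receptors, Itpr1 was read by 2 probes that lay 1267 bases apart. Its brighter probe, A_64_P156632, had log2 intensities of 11.36, 11.96 and 12.21 (lowest, median and highest) in control and 11.27, 11.96 and 12.26 in ACE cultures. The groups overlapped over nearly their whole ranges, and the lowest array of both was that of replicate 6. The mean was 11.89 ± 0.28 in control and 11.91 ± 0.35 in ACE cultures (SD, n = 6), a difference of 0.017 ± 0.045 on the log2 scale (limma estimate ± SE, 95% interval -0.091 to 0.13, adjusted p = 0.866), with 3 of 6 pairs higher in ACE. The second probe, A_64_P119637, whose sequence is given above, gave 7.91, 8.26 and 8.56 in control and 7.97, 8.35 and 8.58 in ACE cultures. It was higher in ACE in 5 of 6 pairs, by 0.034 ± 0.029 (limma adjusted p = 0.573). The 2 Itpr1 probes moved together across the 12 arrays (Pearson r = 0.856, a description, since the arrays of a pair share a culture lot).

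Itpr2, the IP3 receptor common in glia and other non-neuronal cells, came nearest to the threshold. Its log2 intensities were 9.38, 9.58 and 9.92 in control and 9.44, 9.62 and 10.00 in ACE cultures. The ranges overlapped almost fully, but within the pairs ACE was higher in 5 of 6, and replicate 4 was the exception. The difference was 0.057 ± 0.027 on the log2 scale (1.04-fold, 95% interval -0.0077 to 0.12), and the limma p was 0.0750 before and 0.346 after adjustment, with an exact two-sided signed-rank p of 0.0625 over the 6 pairs. The unadjusted limma p was 0.0279 without replicate 4, the pair that went the other way (adjusted p = 0.321), and 0.120 to 0.173 without each of the other pairs. It was 0.230 with the 75th percentile shift, 0.197 with normexp background correction and 0.0469 with the deposited log2 values.

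Itpr3, the IP3 receptor typical of epithelial and secretory cells, gave a dim signal of 28.8 to 161 intensity units that was still well above background on all 12 arrays. Its log2 intensities were 5.09, 5.90 and 7.91 in control and 5.24, 5.60 and 6.41 in ACE cultures. The highest value was that of control replicate 4, and all other arrays lay at 6.41 or below. The difference was -0.40 ± 0.39 on the log2 scale (95% interval -1.33 to 0.53, limma adjusted p = 0.626), and pair differences ran from -2.50 to 0.49. Replicate 4 alone made up 63.7% of the summed size of the pair differences, and without it the difference was 0.023.

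The ryanodine receptors differed in how well they were measured. For Ryr3, the form described in brain and in developing muscle, probe A_64_P095680 gave log2 intensities of 10.46, 10.70 and 11.11 in control and 10.50, 10.66 and 10.98 in ACE cultures. The groups overlapped, and 2 of 6 pairs were higher in ACE. The difference was -0.042 ± 0.066 (95% interval -0.20 to 0.12, limma adjusted p = 0.768), and leaving out 1 pair moved it between -0.00059 (without replicate 5) and -0.090 (without replicate 3). The further Ryr3 probe, A_64_P033565, which lay 3544 bases away, differed by 0.014 ± 0.081 (limma adjusted p = 0.943), with 3 of 6 pairs higher in ACE. In the 3 pairs scanned together as 1 batch (replicates 4 to 6) this further probe was lower in ACE, by -0.17 on the log2 scale, and in replicates 1 to 3 all of its pair differences were above 0. The limma fit across all probes within that batch gave it an unadjusted p of 0.0156 and an adjusted p of 0.334.

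Ryr2 was read by neighbouring probes with opposite outcomes. Probe A_64_P091098 was well above background on all 12 arrays, with log2 intensities of 9.13, 9.22 and 9.44 in control and 8.97, 9.19 and 9.38 in ACE cultures. It was among the steadier probes of the arrays: 11.2% of the probes tested had a smaller SD over the 12 arrays. The difference was -0.040 ± 0.054 on the log2 scale (95% interval -0.17 to 0.090, limma adjusted p = 0.731), with 2 of 6 pairs higher in ACE. It was -0.015 without replicate 2, -0.016 without replicate 5, -0.064 without replicate 6 and -0.084 without replicate 3. Probe A_64_P000023, whose sequence with its self-complementary run of 18 bases is given above, started 55 bases before it and shared 5 positions with it, yet it was not well above background on any array (2.07 to 3.77 intensity units). It did not pass the filter, and no fold is given because both groups were below background.

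Ryr1, the release channel of skeletal muscle, was not tested, since neither probe passed the filter. Probe A_64_P066497 was not well above background on any of the 12 arrays. Probe A_44_P1033053 was well above background on 4 arrays, those of control replicates 1, 2 and 3, with log2 intensities of 5.71, 6.41 and 3.63, and ACE replicate 1 with 5.06. On the other 8 arrays it ran from 1.43 to 4.33 and was not well above background. The signal of Ryr1 thus rested on 3 culture lots, and in 2 of these the ACE culture was not above background.

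Of the SERCA pumps, Atp2a2 was the most even. Its brighter probe, A_44_P187080, was printed on 10 spots and gave log2 intensities of 14.39, 14.65 and 14.76 in control and 14.42, 14.64 and 14.78 in ACE cultures. The groups covered nearly the same range. The means were 14.61 ± 0.16 and 14.61 ± 0.14 (SD, n = 6), with a difference of 0.0012 ± 0.028 on the log2 scale (95% interval -0.065 to 0.068, limma adjusted p = 0.985), and 4 of 6 pairs were higher in ACE. Probe A_64_P096184, 3082 bases away on the genome and listed under another transcript accession of the gene, differed by -0.028 ± 0.032 (95% interval -0.10 to 0.049, limma adjusted p = 0.683).

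While the differences with exposure were small, the 2 Atp2a2 probes ran in opposite directions from lot to lot. Probe A_44_P187080 was at 14.39 to 14.59 in replicates 1 to 3 and at 14.69 to 14.78 in replicates 4 to 6, with no overlap, while A_64_P096184 was at 13.32 to 13.65 and at 13.03 to 13.37. Across the 12 arrays the probes correlated at r = -0.822, and across the 6 control arrays at r = -0.943. With the arrays scaled by their 75th percentile in place of quantile normalisation, r over the 12 arrays was -0.731. Replicates 4 to 6 were the pairs scanned as 1 batch and their arrays were dimmer (75th percentile of 1803 to 2428 against 2805 to 4384 intensity units), so lot, scan batch and brightness cannot be told apart.

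**Figure D2:**
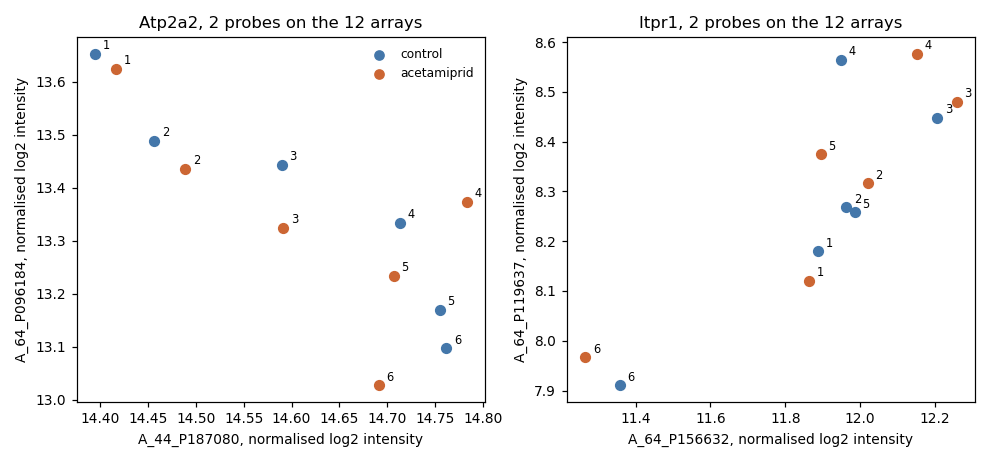
Normalised log2 intensity of the 2 Atp2a2 probes (left) and of the 2 Itpr1 probes (right) on the 12 arrays, with replicate numbers beside the points and the colour giving the group. The Atp2a2 probes run in opposite directions (r = -0.822) and the Itpr1 probes run together (r = 0.856), and in both panels the control and ACE culture of a replicate lie close to each other.

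Atp2a1, the pump of fast skeletal muscle, had the largest difference in size and the largest error of the tested members. Its log2 intensities were 6.02, 7.18 and 11.17 in control and 6.03, 6.91 and 9.20 in ACE cultures. The groups overlapped from their lowest values upwards, and 3 arrays stood above the rest: control replicate 2, and both arrays of replicate 1 (8.95 in control, 9.20 in ACE). The means were 7.88 ± 1.89 and 7.07 ± 1.15 (SD, n = 6), and the difference was -0.81 ± 0.60 on the log2 scale (0.570-fold, 95% interval -2.24 to 0.62, limma adjusted p = 0.518). Pair differences ran from -3.98 to 0.37 with 3 of 6 pairs higher in ACE, and replicate 2 made up 65.2% of their summed size. Without replicate 2 the difference was -0.18 on the log2 scale. Among all probes tested, 99.5% had a smaller SD over the 12 arrays than Atp2a1.

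Atp2a3, a SERCA pump known from blood cells, endothelium and Purkinje cells, was near background. Its probe was well above background on 3 control and 4 ACE arrays. Log2 intensities were 3.60, 4.12 and 4.51 in control and 3.20, 4.41 and 4.66 in ACE cultures, in overlapping ranges. The difference was 0.088 ± 0.12 (95% interval -0.20 to 0.38, limma adjusted p = 0.734), and the dim signal limits what could be detected.

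**Figure D3:**
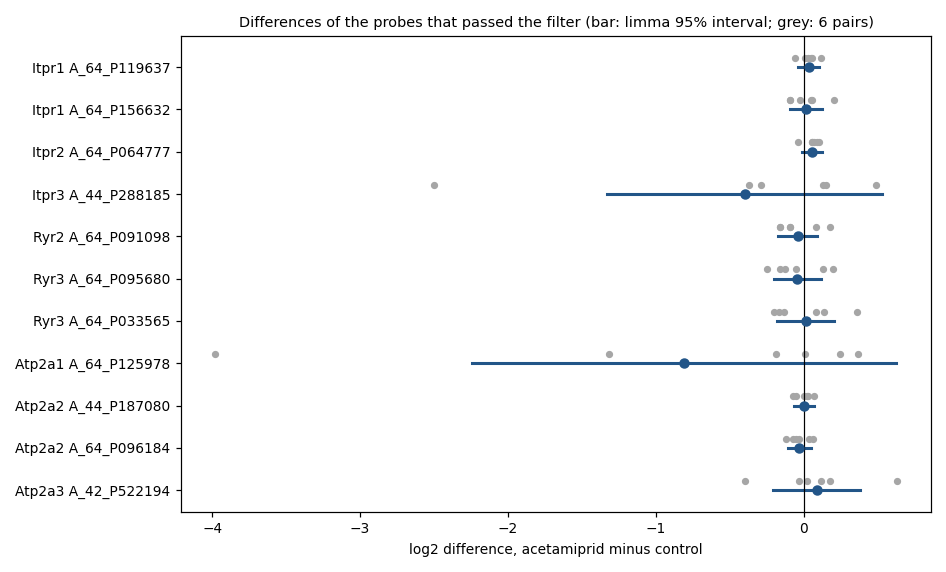
Log2 difference, ACE minus control, of the 10 member probes tested and of the further Ryr3 probe (blue point, limma estimate, with its 95% interval) and of each of the 6 pairs (grey points). All intervals include 0, and those of Itpr3 (-1.33 to 0.53) and Atp2a1 (-2.24 to 0.62) are far wider than the rest.

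Whether the muscle forms moved with other muscle genes was examined next. The mean log2 intensity of the 35 skeletal muscle genes tested was 7.19, 7.68 and 9.62 (lowest, median and highest) in control and 7.10, 7.32 and 8.61 in ACE cultures, and their summed intensity was 39201 to 159234 units in control and 45204 to 88801 units in ACE cultures. The arrays highest in this mean were control replicates 2 and 1 and ACE replicate 1 (9.62, 9.11 and 8.61). The same 3 arrays were highest in Atp2a1 and in the Ryr1 probe A_44_P1033053. By summed intensity, control replicates 2 and 1 were again highest (159234 and 89159 units). ACE replicate 1 (65306) then lay below ACE replicate 2 (88801) and control replicates 5 and 6 (74163 and 70186). The brightest genes of the list were Myh8, a perinatal myosin heavy chain (15.24 ± 0.64 in control, 15.09 ± 0.46 in ACE, SD, n = 6), and Eno3, a muscle enolase (11.53 ± 0.57 and 11.33 ± 0.32). The median difference of the list was -0.35 on the log2 scale, and 1 of its genes was higher and 4 were lower in ACE at an unadjusted limma p under 0.05 (14.3%, against 16.6% of all probes). The median was -0.22 without replicate 2. In the pairs of replicates 1, 2 and 6 the mean of the list differed by -0.50, -2.01 and -0.92 on the log2 scale, and in replicates 3, 4 and 5 by -0.080, -0.056 and 0.16. The part of the muscle genes in the values of Atp2a1 was not tested beyond the correlations that follow.

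Over the 6 control arrays, Atp2a1 correlated with the mean of the muscle list at r = 0.965 (exact permutation p = 0.0028, two-sided) and Spearman's rho = 0.943 (exact permutation p = 0.0167), and r was 0.857 without the 2 arrays farthest from the list's median (replicates 1 and 2). Over the 6 pair differences r was 0.945 (exact permutation p = 0.0208) and rho was 0.714 (exact permutation p = 0.136), but r was -0.37 without replicates 2 and 6, so this relation rests on those pairs. Atp2a3 correlated with the list over the control arrays at r = 0.884 (exact permutation p = 0.0333), with rho = 0.714 (exact permutation p = 0.136) and r = 0.815 without replicates 1 and 2, but its probe was not well above background on 3 of these 6 arrays (replicates 4, 5 and 6), so the order of those values is uncertain. Ryr2 ran against the Purkinje cell list over the pair differences, with r = -0.662 (exact permutation p = 0.158) and rho = -0.886 (exact permutation p = 0.0333). Without replicates 5 and 6 r was -0.988, but over the 4 pairs left r is unstable. For Itpr2 and the muscle list over control arrays, leaving out 2 replicates turned r from -0.498 to 0.996. A family of 32 relations was computed, for the 8 tested members with the muscle and the Purkinje cell list over control arrays and over pair differences. None passed after Benjamini-Hochberg adjustment, with adjusted permutation p-values for r of 0.0889 and 0.333 for Atp2a1, 0.356 for Atp2a3 and 0.978 for Ryr2, and for rho of 0.533 or more.

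**Figure D4:**
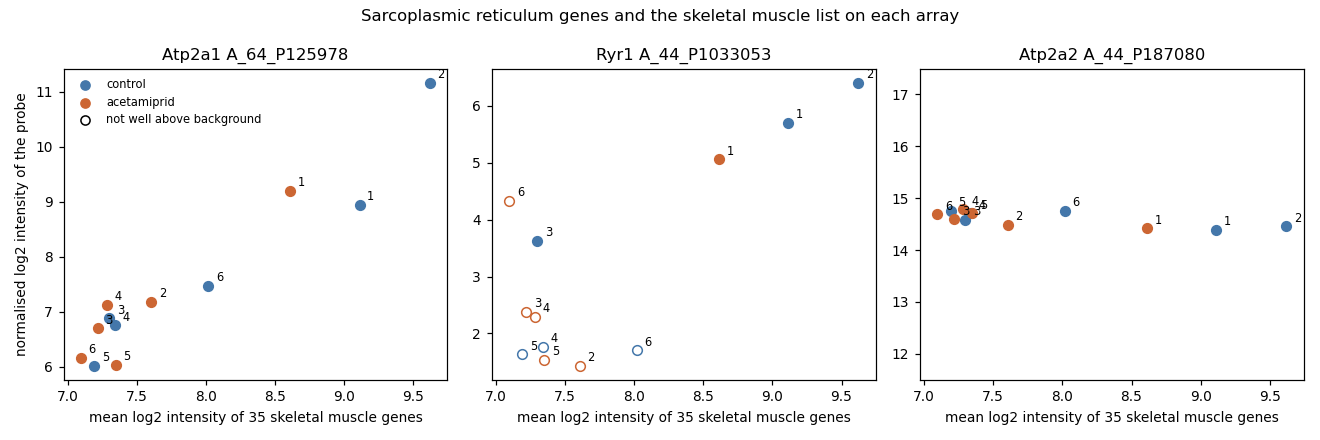
Normalised log2 intensity of Atp2a1, Ryr1 and Atp2a2 probes (y axis) against the mean log2 intensity of 35 skeletal muscle genes (x axis) on the 12 arrays, with replicate numbers beside the points and open circles where the probe was not well above background. Control replicates 1 and 2 and ACE replicate 1 lie highest in the mean of the muscle list, in Atp2a1 and in Ryr1, while Atp2a2 stays between 14.39 and 14.78.

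Itpr1 was set against the Purkinje cell list in the same way. The list's mean was 7.67, 8.04 and 8.28 in control and 7.38, 8.07 and 8.29 in ACE cultures, with replicate 6 lowest in both groups, as it was for Itpr1. Its brightest genes were Calb1 (calbindin; 10.85 ± 0.60 in control, 10.73 ± 0.60 in ACE, SD, n = 6) and Dner (10.66 ± 0.43 and 10.57 ± 0.40). Of the 12 genes tested, 1 was higher and 3 were lower in ACE at an unadjusted limma p under 0.05, which is 33.3%, against 16.6% of all probes. The median difference was -0.053 on the log2 scale, and its direction rested on replicate 6, without which it was 0.0060. Over the control arrays Itpr1 correlated with the list at r = 0.612 (exact permutation p = 0.190) and rho = 0.429 (exact permutation p = 0.419), with adjusted permutation p-values of 0.978 and 0.988. Without replicates 1 and 6 r was -0.876, so the relation rests on those arrays.

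Genes with the most similar pattern across the 12 arrays were named for the 7 members whose brightest probe was well above background on all of them, out of 14682 or 14683 probes each. For Itpr1 the nearest was Ptprr, a tyrosine phosphatase (r = 0.971), followed by Sfxn4 (0.939) and Mtmr3 (0.924). For Itpr2 they were Trib3 (0.970), Cyth2 (0.963) and Eif2b3 (0.956). For Itpr3 they were Erf (0.947), Glt25d2 (0.936) and Pid1 (0.918). These r values are the highest of that many over 12 arrays in 6 lots, and they are given as a description only.

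Among the ryanodine receptors, Ryr2 was nearest to Abca3 (r = 0.930), Bpifb6 (0.916) and Pex6 (0.908), and Ryr3 was nearest to Fkbp9 (0.958), Slit3 (0.924) and Lepre1 (0.922). Atp2a1 was nearest to Ctxn3 (0.968) and to Tnni2 and Tnnt2 (0.947 each), troponin subunits of the contractile apparatus. Among the genes nearest to Atp2a2 were Dync1li2 (0.980) and Yy1 (0.977).

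The other genes of calcium stores were read from 8 lists with 120 genes, of which 117 had a probe and 111 were tested. At an unadjusted limma p under 0.05, 6 were higher and 7 lower in ACE (11.7%, against 16.6% of all probes), 0 passed after adjustment, and the median difference was 0.0069 on the log2 scale. The luminal list, calcium-binding proteins and chaperones of the store, had 1 of 16 tested genes past the unadjusted threshold, Nucb1, lower in ACE by -0.12 ± 0.035 (adjusted p = 0.197). Its brightest gene, the chaperone Hspa5, was at 14.67 ± 0.12 in control and 14.64 ± 0.19 in ACE cultures (SD, n = 6). The list's median was -0.021.

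The junction list, proteins of the contact between the store and the surface membrane, had the lowest median of the 8 lists. It was -0.25 on the log2 scale over 7 tested genes, of which 3 were well above background on all 12 arrays. Only Jsrp1, a junctional protein of the sarcoplasmic reticulum, was past the unadjusted threshold, at -0.25 ± 0.074 and lower in ACE in 6 of 6 pairs (limma adjusted p = 0.206). The lowest differences of the list, picked after their values were seen, were those of Cacna1s, the voltage sensor of skeletal muscle (-1.28 ± 0.60, limma adjusted p = 0.347), and Trdn, triadin (-1.11 ± 0.50, limma adjusted p = 0.324), and both were lower in 5 of 6 pairs. Cacna1s was well above background on 11 of the 12 arrays and Trdn on 10. Jph3, the neuronal junctophilin and the brightest gene of the list, differed by -0.0088 ± 0.038. The median of the junction list was -0.16 with normexp background correction. In the same arrays the muscle marker list had a median difference of -0.35 (-0.22 without replicate 2), with pair differences as given above, and the part of muscle cells in the junction list was not tested.

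Of the regulators of ryanodine receptors and SERCA pumps, 1 of 11 tested genes was past the unadjusted threshold (9.09%, against 16.6% of all probes). This was Pln, phospholamban, an inhibitor of the SERCA pump, at 5.65 ± 0.38 in control and 5.34 ± 0.23 in ACE cultures (-0.31 ± 0.12, 1 of 6 pairs higher, limma adjusted p = 0.283). Calm3, a calmodulin gene and the brightest of this list, differed by 0.052 ± 0.048. Among 13 tested IP3 receptor partners Bcl2l1, a survival factor that binds IP3 receptors, was higher in ACE in 6 of 6 pairs by 0.12 ± 0.029 (limma adjusted p = 0.158). Ahcyl1, the IP3 receptor binding protein released by IP3 and the brightest of its list, differed by 0.0084 ± 0.026.

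Of 21 tested genes for making and removing IP3, 2 were past the unadjusted threshold, both lower in ACE (9.52%, against 16.6% of all probes). Over all probes, 11.6% went the same way in all 6 pairs. Itpkc, an IP3 kinase, was lower in 6 of 6 pairs (-0.12 ± 0.042, limma adjusted p = 0.239), and Plch2, a phospholipase C, was lower in 5 of 6 (-0.19 ± 0.078, limma adjusted p = 0.285). Plcd4, the brightest, differed by -0.024 ± 0.024. Store-operated entry lets calcium flow in once the store is empty. Of its 11 tested genes, 2 were past the threshold, both higher in ACE (18.2%, against 16.6% of all probes). These were Trpc4, a cation channel, in 6 of 6 pairs (0.29 ± 0.066, limma adjusted p = 0.156), and Stim1, the calcium sensor of the store, in 5 of 6 (0.074 ± 0.030, limma adjusted p = 0.289). Saraf, the brightest of this list, differed by 0.046 ± 0.023.

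Among 12 tested calcium pumps and exchangers of other membranes, 2 were past the unadjusted threshold (16.7%, against 16.6% of all probes). Both were lower in ACE in 5 of 6 pairs: Slc24a2 (-0.14 ± 0.046, limma adjusted p = 0.234) and Slc8b1, the mitochondrial sodium/calcium exchanger (-0.12 ± 0.045, limma adjusted p = 0.260). Atp2b1, a plasma membrane calcium pump and the brightest of the list, differed by 0.055 ± 0.040. Of 20 tested channels of other organelles, 3 were past the threshold (15%, against 16.6% of all probes). All 3 were higher in ACE: Mcoln2 (0.22 ± 0.071), Letm1 (0.092 ± 0.029) and Vdac2 (0.11 ± 0.037), with limma adjusted p-values of 0.218, 0.219 and 0.233. Tmbim6, the brightest of this list, differed by -0.0053 ± 0.026.

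**Figure D5:**
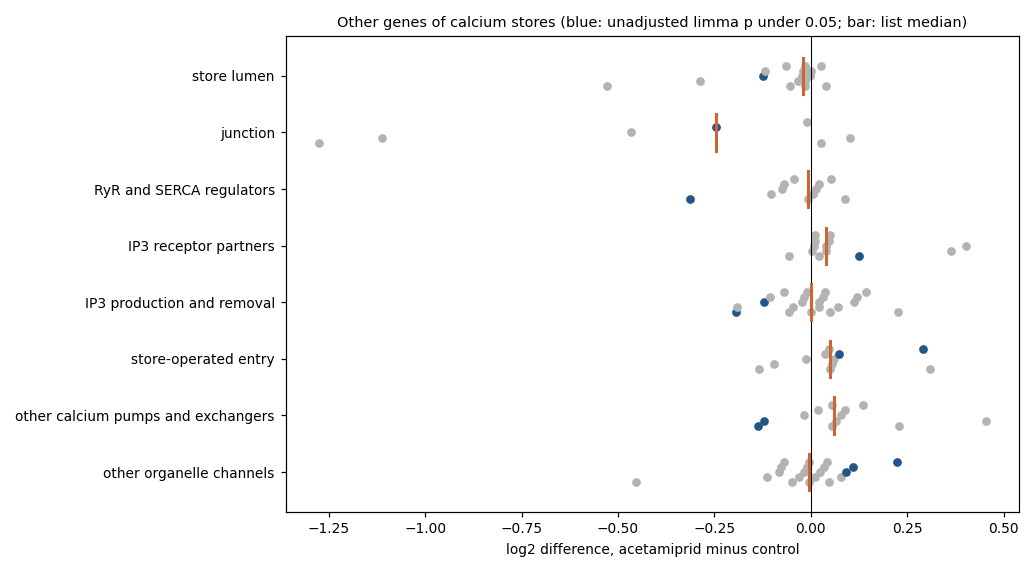
Log2 difference, ACE minus control, of the 111 tested genes of 8 calcium store lists (points, 1 gene each by its brightest probe, blue where the unadjusted limma p was under 0.05) with the median of each list (orange bar). The junction list has the lowest median (-0.25) and the lowest genes, and the other medians lie between -0.021 and 0.060.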

How the data were processed

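The authors deposited, for each of the 12 arrays, spot intensities from Agilent's Feature Extraction software (11.0.1.1 for replicate 1, the release the submitters' processing notes name, and 11.5.1.1 for the other arrays, per the file headers), with background subtracted and no scaling between arrays. They also deposited log2 values that their methods describe as quantile normalised and centred on each probe's median. Set against the values computed here, centred alike, they gave r = 0.997 to 0.999 on each array, which settled scale and direction. They served as an alternative. Cultures exposed to nicotine or imidacloprid were not analysed here.

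Here, processed intensities were put on the log2 scale and quantile normalised across the 12 arrays, outlier spots were set to missing (447 probe values), and spots of a probe were averaged. Tested were probes with 4 or more complete pairs whose value exceeded percentile 20 of the array on 7 or more of the 12. The test was limma 3.58.1 (lmFit and eBayes, R 4.3.3), two-sided, with the replicate number as a fixed block, Benjamini-Hochberg adjustment over 23796 probes, and a threshold of 0.05. The numbers were taken to pair the samples by culture lot, since the study's methods prepared all groups of an experiment from 1 lot. Deviations from the group means correlated at 0.304 to 0.843 between arrays of 1 number and at -0.353 to 0.363 otherwise. Arrays of 1 number also shared a slide and a scan batch, so these correlations cannot show a shared lot. Exact signed-rank and sign-flip tests over pairs were alternatives. With 6 pairs their smallest p-value is 0.03125.

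A gene's brightest probe stood for it in lists. Named from each pathway list were the gene with the lowest p, the brightest gene and up to 4 with an unadjusted p under 0.05, from the muscle and Purkinje cell lists the 2 brightest genes, and for each member the 3 genes most like it, leaving out names that are only clone or locus numbers (an exclusion added after the rule was written). One gene that this rule names is not reported here. Members and lists were chosen with earlier results of these data known. Gene names are those of the array files, and RefSeq accessions of 10 of the 14 probes matched the same symbol among RefSeq genes of assembly GRCr8. No protein sequence was used here. The tests were checked on simulated data. Other software was Python 3.11.15 with matplotlib 3.10.9 for the plots, and data.table (1.17.8) for reading files. The number of arrays limits the precision.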

Additional observations from a re-analysis of the deposited data

Results flagged for a closer look

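Each group of 6 arrays was searched for a highest or lowest array far from the others. This was done for the 14 probes and for the means of the muscle and Purkinje cell lists, 32 groups in all, and 5 were found, where chance gives about 1 in 20. For Itpr1 (A_64_P156632), control replicate 6 was at 11.36, below the next array at 11.89. For Atp2a1, ACE replicate 1 was at 9.20, above the next at 7.19, and the mean of the skeletal muscle list had the same array at 8.61, above the next at 7.61. The Ryr1 probe A_64_P066497 had control replicate 5 at 3.44, above the next at 1.79, and ACE replicate 1 at 1.89, above the next at 1.53, but none of these arrays was well above background for it.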

How the results depend on the processing

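No member passed the adjusted threshold in any limma alternative run, and the median over the member probes (-0.013) ran from -0.031 with the 75th percentile shift to 0.0057 with normexp background correction. At an unadjusted limma p under 0.05 the count of members was 0 of 10, against 3956 of all 23796 probes. With the deposited values it was 1 of 10 (Itpr2), against 3986 of 23796. When each pair was left out in turn it was 0 to 1, and the share over all probes is not given for these fits. The normal approximation of the signed-rank test gave a count of 1 (4591 of all probes pass it, against 2755 by the exact test). With 6 pairs neither rank test could be expected to pass the adjustment. The count of members with 1 direction in all pairs, 0, was also 0 to 1 with a pair left out. With fewer pairs 1 direction in all of them is reached more easily, and the share over all probes is not given. The count of all probes past the adjusted threshold was 0 in each fit with the replicate block fixed and without it, and 5 with the replicate block as a random effect. Without the replicate block the unadjusted limma p of Itpr2 was 0.634. The median of all pathway genes was -0.014 with the 75th percentile shift. That shift also lowered the median of all probes from -0.0050 to -0.033 and the share of unadjusted calls that were higher in ACE from 41.5% to 19.7%, and it was 51.5% with the deposited values. The cause was not tested.

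Directions of small differences turned over. With the 75th percentile shift, Itpr1 A_64_P119637 was at -0.0042, Ryr3 A_64_P033565 at -0.014, Atp2a2 A_44_P187080 at -0.0053 and Atp2a3 at -0.035. With normexp background correction, Itpr1 A_64_P156632 was at -0.0023 and Atp2a2 A_64_P096184 at 0.019. Within the scan batch of 3 pairs, Ryr3 A_64_P033565, which is not counted among the members, was at -0.17, Atp2a2 A_44_P187080 at -0.016 and Atp2a2 A_64_P096184 at 0.011. The limma fit within that batch gave this Ryr3 probe an unadjusted p of 0.0156 (adjusted p = 0.334). Averaged over its probes Atp2a2 was at -0.013. Leaving out each pair in turn gave ranges of -0.020 to 0.039 for Itpr1 A_64_P156632, -0.57 to 0.023 for Itpr3 A_44_P288185, -0.056 to 0.056 for Ryr3 A_64_P033565, -0.012 to 0.016 for Atp2a2 A_44_P187080 and -0.021 to 0.18 for Atp2a3 A_42_P522194. With 1 direction throughout, they were 0.018 to 0.053 for Itpr1 A_64_P119637, 0.048 to 0.076 for Itpr2, -0.084 to -0.015 for Ryr2 A_64_P091098, -0.090 to -0.00059 for Ryr3 A_64_P095680, -1.05 to -0.18 for Atp2a1 and -0.046 to -0.0095 for Atp2a2 A_64_P096184. Without the 2 farthest replicates, Itpr1 against the Purkinje cell list had r = -0.876 over control levels and -0.037 over pair differences, and Atp2a1 against the muscle list had r = -0.37 over pair differences. Without the filter, limma gave the Ryr1 probes adjusted p-values of 0.781 and 0.675, and the dim Ryr2 probe 0.974. Dim signal limits Ryr1 and Atp2a3. For Itpr3, dim but well above background on all 12 arrays, replicate 4 made up 63.7% of the summed size of the pair differences.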
